A study of Homo sapiens with 4 samples.

Results

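Aldo-keto reductases (AKRs) and aldehyde dehydrogenases (ALDHs) were examined in RNA-seq of MHCC-97H cells, an established metastatic hepatocellular carcinoma (HCC) line. The genes were 5 AKRs (AKR1B1, AKR1B10, AKR1C1, AKR1C2 and AKR1C3) and 5 ALDHs (ALDH1A1, ALDH1A3, ALDH2, ALDH3A1 and ALDH3A2). They were chosen with earlier results of these data known and matched by symbol, and all 10 were found among the 58735 genes counted. In the library labelled PBS, AKR1B1 made up 97.8% of the summed FPKM of these 5 AKRs, and ALDH1A1, AKR1C2 and AKR1B10 were represented by 8, 10 and 16 reads. In each library from cells given migrasomes (Migs), those 3 genes had between 3033 and 8311 reads, AKR1C1 and AKR1C3 were also higher, and AKR1B1 was lower. Among the 3 Mig libraries, no member differed by 2-fold or more in any pair, beside between 9.12% and 9.69% of all genes tested. Genes with few reads weigh heavily in those shares.

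Both superfamilies remove reactive carbonyls by different chemistry. AKRs reduce aldehydes and ketones to alcohols with NADPH, and ALDHs oxidize aldehydes to carboxylic acids with NAD+ or NADP+. Members of the AKR1B group act on glucose, lipid aldehydes and retinal, those of the AKR1C group act on steroids and prostaglandins, and ALDH1A enzymes make retinoic acid from retinal. In liver, ALDH2 is known for clearing the acetaldehyde formed from alcohol, AKR1B10 is known as a gene low in normal liver and often high in HCC, and ALDH1A1 is widely used as a marker of stem-like tumour cells.

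Each condition had 1 library, 4 in all, and the labels give every library the same batch and give the sequenced cells a wild-type genotype. The first library was from MHCC-97H cells given PBS for 24 h. The other 3 were from MHCC-97H cells given 2 μg of Migs, large extracellular vesicles shed by migrating cells, for the same time. Normo-Migs came from MHCC-97H cells in normoxia, hypo-Migs from MHCC-97H cells in hypoxia, and CD147KO-Migs from CD147-knockout MHCC-97H cells in hypoxia. These are the conditions of the labels and the supplementary methods, whereas the main methods name hypoxia for normo-Migs too. The oxygen contrast between the Migs therefore rests on the labels and the supplementary methods. The comparisons asked how cells differed after Migs from those given PBS, and whether the oxygen supply or CD147 status of the cells that shed the Migs made a difference. Normo-Migs and CD147KO-Migs differed in both oxygen supply and CD147 status, which cannot be told apart in that pair. The oxygen level and glucose used for each Mig batch, and whether the knockout line was a single clone, are not given in the sources used here. The knockout was in the cells that shed the Migs, so BSG, the gene of CD147, is no check of the labels in the cells sequenced. It had 48157 reads for PBS, 34051 after normo-Migs, 37109 after hypo-Migs and 34021 after CD147KO-Migs.

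The number of reads on genes was 33882496 for PBS, 34559968 after normo-Migs, 40285223 after hypo-Migs and 35043203 after CD147KO-Migs. Levels are given as FPKM, the reads of a gene per kilobase of its length and per 1000000 fragments, or as reads. Differences are given as log2 ratios of reads after TMM scaling of the libraries, and 1 or more in either direction (2-fold) was the call. The figures in parentheses after a log2 ratio are its exact 95% interval, which is for counting error only and leaves out differences between cultures. Without molecular identifiers reads cannot be taken as independent molecules, so the interval may be too narrow even for counting error. With 1 library per condition there is no spread between cultures to test a difference against, so no p-value is given. All comparisons with PBS share 1 library, and in these an effect of Migs and any other difference of that library cannot be told apart. In bulk RNA, fewer cells of a type and less RNA per cell cannot be told apart either.

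The library labelled PBS stood apart from the other 3 in many genes besides the AKRs and ALDHs. There were 251 genes that had at most 3 reads in it but 100 or more in every Mig library, and 0 such genes for each of the other libraries. The liver identity given by the labels was only partly borne out by the 19 hepatocyte and HCC markers examined. ALB, AFP, APOB, TTR and GPC3 had 0 reads in all 4 libraries, and 12 markers were at 0 for PBS, 9 after normo-Migs, 8 after hypo-Migs and 7 after CD147KO-Migs. CPS1, the urea cycle enzyme that opens the pathway, was the most abundant marker, at 163 FPKM for PBS, 160 after normo-Migs, 176 after hypo-Migs and 179 after CD147KO-Migs. Without CPS1 the markers summed to 0.955 FPKM for PBS, 9.66 after normo-Migs, 11.7 after hypo-Migs and 13.4 after CD147KO-Migs. Of the 11 tested, 5 were higher and 2 lower past 2-fold with normo-Migs and with hypo-Migs against PBS, and 6 and 2 with CD147KO-Migs. Of all genes tested, 30.2%, 30.5% and 30.3% were past 2-fold in these comparisons. The lower ones were SERPINA1 and CYP3A4, named after their values were seen.

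Markers of other cell types differed along the same split. The 6 biliary markers, led by KRT7, summed to 536 FPKM for PBS and to 153, 143 and 142 FPKM with normo-Migs, hypo-Migs and CD147KO-Migs. Of the 6, KRT7, KRT19 and MUC1 were lower and EPCAM and SOX9 higher past 2-fold with each Mig. Of all genes tested, 30.2%, 30.5% and 30.3% were past 2-fold against PBS in the same order of Migs. KRT19 had 11287 reads for PBS and 75, 52 and 32 reads in those Mig libraries, whereas SOX9 had 7 and 327, 441 and 391. The 11 fibroblast and stellate markers, led by COL1A1, summed to 4.05 FPKM for PBS and to 28.1, 29.9 and 29.8 FPKM with Migs, and 2, 2, 3 and 2 of them were at 0. The 8 endothelial markers summed to 0.585 FPKM for PBS and to 0.641, 0.832 and 0.826 FPKM with Migs, led by CDH5 for PBS and by PECAM1 with Migs, and 3, 4, 3 and 2 were at 0. The 8 leukocyte markers summed to 0.401 FPKM for PBS and to 2.21, 2.45 and 2.66 FPKM with Migs, led by CSF1R with normo-Migs and by CD14 in the other libraries. CD3E and MS4A1, which define T and B cells, were at 0 in all 4. The part of these differences in the AKR and ALDH results was not tested.

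The AKR1C genes lie side by side on chromosome 10 and their transcripts are near copies, which bears on how reads could be assigned. On GRCh38, AKR1C1 lies at chr10:4963253-4983283 on the plus strand, AKR1C2 at chr10:4987400-5018031 on the minus strand and AKR1C3 at chr10:5035354-5107686 on the plus strand, with 4116 bases between AKR1C1 and AKR1C2 and 17322 between AKR1C2 and AKR1C3. The principal transcript of each has 9 exons and 969 coding bases. AKR1C1 and AKR1C2 differed at 19 of those bases (98.0% identical), and AKR1C1 and AKR1C3 at 83 (91.4% identical). AKR1B1, at chr7:134442350-134459284 on the minus strand, and AKR1B10, at chr7:134527592-134541408 on the plus strand, are 68307 bases apart and differed at 235 of 948 coding bases (75.2% identical). The first 120 coding bases of the GENCODE release 29 transcripts show how far the members of each group can be told apart by sequence. They span the first 2 coding exons, with the intron left out, and the capitals mark bases that differ from AKR1C1, the reference for the first set.
AKR1C1: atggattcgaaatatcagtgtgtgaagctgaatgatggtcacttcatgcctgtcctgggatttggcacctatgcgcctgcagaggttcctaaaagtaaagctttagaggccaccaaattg
AKR1C2: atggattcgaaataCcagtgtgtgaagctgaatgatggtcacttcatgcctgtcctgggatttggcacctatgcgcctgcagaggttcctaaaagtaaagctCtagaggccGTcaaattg
AKR1C3: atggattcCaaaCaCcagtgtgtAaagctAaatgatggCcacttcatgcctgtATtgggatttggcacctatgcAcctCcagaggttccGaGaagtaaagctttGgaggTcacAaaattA
In these 120 bases AKR1C2 differed from AKR1C1 at 4 positions and AKR1C3 at 16. The AKR1B pair is shown the same way, with capitals where AKR1B1 differs from AKR1B10.
AKR1B10: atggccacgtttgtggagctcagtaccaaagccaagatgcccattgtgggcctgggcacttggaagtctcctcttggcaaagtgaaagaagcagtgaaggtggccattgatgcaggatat
AKR1B1: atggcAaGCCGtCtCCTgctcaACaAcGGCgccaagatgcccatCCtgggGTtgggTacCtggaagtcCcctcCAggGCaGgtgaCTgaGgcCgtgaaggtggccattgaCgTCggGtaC
AKR1B1 differed from AKR1B10 at 36 of the 120. Over the whole principal transcript, 31.1% of the stretches of 100 bases in AKR1C2 also occurred in AKR1C1, and 17.2% of those in AKR1C1 occurred in AKR1C2. Such shared stretches were 4.98% of AKR1C3 and 2.01% of AKR1B10, they were 6.21% of ALDH2, nearly all shared with a readthrough gene that had 0 reads, and there were 0 in AKR1B1, ALDH1A1, ALDH1A3, ALDH3A1 and ALDH3A2. How reads that match several genes were counted is not given in the sources used here, so the division of reads between AKR1C1 and AKR1C2 is uncertain.

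AKR1B1, the aldose reductase that turns glucose into sorbitol, was the most abundant member per length in all 4 libraries. It had 47111 reads for PBS (372 FPKM), 19617 after normo-Migs (156 FPKM), 24484 after hypo-Migs (165 FPKM) and 21892 after CD147KO-Migs (169 FPKM). The library labelled PBS was above all 3 Mig libraries, which lay close together. Against PBS the log2 ratio was -1.25 after normo-Migs (-1.27 to -1.22), -1.16 after hypo-Migs (-1.18 to -1.14) and -1.13 after CD147KO-Migs (-1.15 to -1.10). AKR1B1 was thus between 2.18-fold and 2.37-fold lower with Migs, and it was the only member past 2-fold in that direction.

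AKR1B10, the retinal and lipid aldehyde reductase next to it, had the opposite pattern. Its reads were 16 for PBS, 3033 after normo-Migs, 3536 after hypo-Migs and 3455 after CD147KO-Migs, or 0.265, 50.6, 50.1 and 56.0 FPKM. Only the library labelled PBS was low, and the reads there were above the 3 that a count of 0 allows. The log2 ratio to PBS was 7.42 after normo-Migs (6.88 to 8.39), 7.41 after hypo-Migs (6.87 to 8.38) and 7.57 after CD147KO-Migs (7.03 to 8.54). The wide intervals come from the 16 reads. AKR1B15, the closest relative of AKR1B10 in the same cluster, had 1 read for PBS and 70, 62 and 83 reads with normo-Migs, hypo-Migs and CD147KO-Migs, and it shared 1.14% of the 100-base stretches of AKR1B10.

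**Figure D1:**
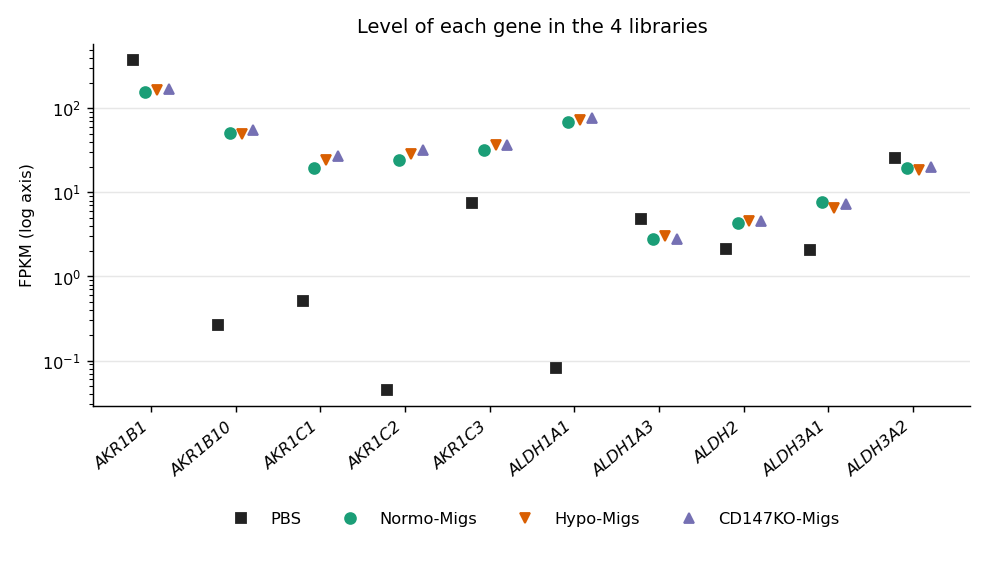
Level of each of the 10 genes in the 4 libraries, in FPKM on a log axis, with 1 point per library and no error bars because each condition had 1 library. The PBS point (black square) lies above the 3 Mig points for AKR1B1, ALDH1A3 and ALDH3A2 and below them for the other 7 genes, from 0.0448 FPKM for AKR1C2 to 372 FPKM for AKR1B1.

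The AKR1C genes, whose enzymes reduce or oxidize hydroxyl and keto groups of steroids, were all higher with Migs than in the library labelled PBS, in very unequal degree. AKR1C1, which inactivates progesterone, had 153 reads for PBS, 5957 after normo-Migs, 8618 after hypo-Migs and 8521 after CD147KO-Migs, or 0.505, 19.8, 24.3 and 27.5 FPKM. Its log2 ratio to PBS was 5.28 after normo-Migs (5.07 to 5.54), 5.58 after hypo-Migs (5.37 to 5.84) and 5.76 after CD147KO-Migs (5.55 to 6.02). AKR1C2, which inactivates dihydrotestosterone, had 10 reads for PBS, 5347 after normo-Migs, 7533 after hypo-Migs and 7299 after CD147KO-Migs, or 0.0448, 24.1, 28.8 and 32.0 FPKM. Its ratios were 8.83 (8.20 to 10.14), 9.09 (8.46 to 10.40) and 9.24 (8.61 to 10.55) in the same order of Migs. On the scale log2(FPKM + 1), where the added 1 far exceeds the PBS level, they were 4.59, 4.83 and 4.98, below the 5.35, 5.34 and 5.49 of AKR1B10 on that scale, so the size and order of these ratios depend on the scale. When the reads of AKR1C1 and AKR1C2 were summed before the fit, so that their division did not matter, the log2 ratio to PBS was 6.12 after normo-Migs, 6.40 after hypo-Migs and 6.56 after CD147KO-Migs.

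AKR1C3, the reductase that makes testosterone from androstenedione and acts on prostaglandin D2, was already present in the library labelled PBS. It had 1165 reads for PBS, 5002 after normo-Migs, 6658 after hypo-Migs and 5911 after CD147KO-Migs, or 7.43, 32.1, 36.3 and 36.9 FPKM. The log2 ratios to PBS were 2.12 (2.03 to 2.21), 2.30 (2.21 to 2.39) and 2.32 (2.23 to 2.41). AKR1C3 was 93.1% of the summed FPKM of the AKR1C genes for PBS (sum 7.98 FPKM) and 42.3%, 40.6% and 38.3% with normo-Migs, hypo-Migs and CD147KO-Migs (sums 76.0, 89.4 and 96.3 FPKM). AKR1C4, the liver member of the same cluster, had 0, 1, 3 and 8 reads and was not tested.

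The 2 members of the ALDH1A group, which oxidize retinal to retinoic acid, went in opposite directions against PBS. ALDH1A1, at chr9:72900662-73080442 on the minus strand, had 8 reads for PBS, 6832 after normo-Migs, 8311 after hypo-Migs and 7772 after CD147KO-Migs, or 0.0812, 69.8, 72.1 and 77.2 FPKM. It was second to AKR1B1 per length in each Mig library and last but one for PBS. Its log2 ratios to PBS were 9.45 after normo-Migs (8.78 to 10.97), 9.49 after hypo-Migs (8.82 to 11.02) and 9.59 after CD147KO-Migs (8.92 to 11.12). On the scale log2(FPKM + 1), where the added 1 far exceeds the PBS level, they were 6.03, 6.08 and 6.18. By absolute log2 ratio of TMM-scaled reads, ALDH1A1 ranked 17, 15 and 14 among the 19895 genes tested, and AKR1C2 ranked 33, 26 and 24.

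ALDH1A3, at chr15:100877714-100916626 on the plus strand, had 958 reads for PBS, 547 after normo-Migs, 700 after hypo-Migs and 568 after CD147KO-Migs, or 4.80, 2.76, 3.00 and 2.78 FPKM. The library labelled PBS was the highest, but no ratio reached 2-fold, and the log2 values were -0.79 (-0.94 to -0.64), -0.67 (-0.81 to -0.53) and -0.77 (-0.93 to -0.62). An antisense gene, AC015712.2, overlaps it and had 135, 88, 140 and 111 reads in the same order, and the strand setting of the counting is not given in the sources used here, so reads of the pair may not be separable. The third gene of the group, ALDH1A2, had 4, 5, 6 and 4 reads and was not tested.

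ALDH2, the mitochondrial enzyme for acetaldehyde at chr12:111766887-111817529 on the plus strand, was near 2-fold higher with Migs. It had 716 reads for PBS, 1438 after normo-Migs, 1818 after hypo-Migs and 1582 after CD147KO-Migs, or 2.13, 4.30, 4.62 and 4.60 FPKM. The log2 ratios were 1.02 (0.89 to 1.16), 1.12 (1.00 to 1.25) and 1.12 (0.99 to 1.25), so the call lies at the edge of counting error. On the scale log2(FPKM + 1), which draws low levels together, they were 0.76, 0.84 and 0.84 and the call was lost. With libraries scaled by total reads, the ratio for normo-Migs was 0.98, also under the call.

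The ALDH3A genes are neighbours on chromosome 17, ALDH3A2 at chr17:19648136-19677598 on the plus strand and ALDH3A1 at chr17:19737984-19748943 on the minus strand, 60385 bases apart. ALDH3A1, a cytosolic enzyme for aromatic and lipid aldehydes, had 279 reads for PBS, 1047 after normo-Migs, 1044 after hypo-Migs and 1007 after CD147KO-Migs, or 2.06, 7.78, 6.58 and 7.27 FPKM. Its log2 ratios to PBS were 1.92 (1.73 to 2.12), 1.68 (1.49 to 1.88) and 1.82 (1.64 to 2.03). ALDH3A2, the fatty aldehyde dehydrogenase of the endoplasmic reticulum, had 5678, 4387, 4837 and 4571 reads, or 25.4, 19.8, 18.5 and 20.0 FPKM. It was highest for PBS and differed least of the 10 members, with log2 ratios of -0.35 (-0.41 to -0.30), -0.45 (-0.50 to -0.39) and -0.33 (-0.39 to -0.28).

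Over all members, 8 of 10 were past 2-fold in each comparison with PBS, 7 of them higher and 1 lower with every kind of Mig. Among the 19895 genes tested, 30.2% were past 2-fold after normo-Migs, 30.5% after hypo-Migs and 30.3% after CD147KO-Migs. The share of all genes that was higher was 18.1%, 18.9% and 18.3%, and the share that was lower was 12.0%, 11.6% and 12.0%. With an adjusted p of 0.05 or less from edgeR's exact binomial test required as well, which compares libraries and not conditions, the 8 members kept their calls beside 27.2%, 28.3% and 27.5% of all genes. The median log2 ratio of the members was 2.02, 1.99 and 2.07, and that of all genes tested was 0.03, 0.04 and 0.03. The library labelled PBS lay outside the range of the 3 Mig libraries, in CPM scaled by TMM, for all 10 members and for 82.0% of all genes tested. The members share gene clusters and, within the AKR1C group, sequence, and so are not independent of each other. They were also chosen with earlier results of these data known.

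**Figure D2:**
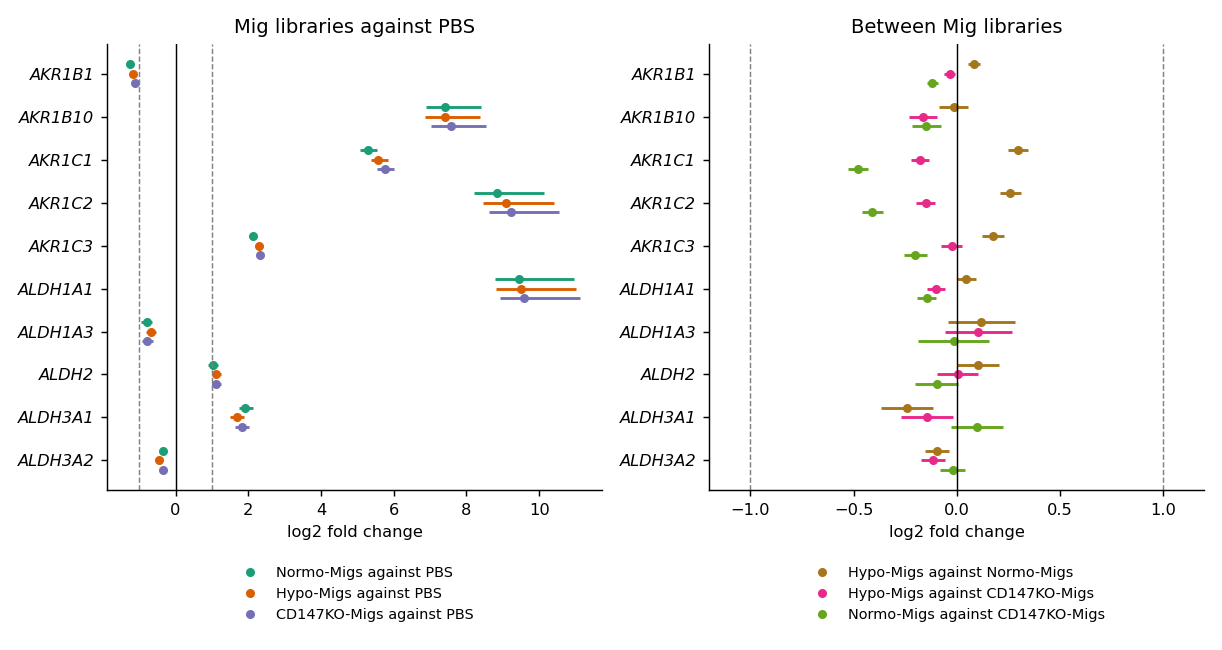
The log2 fold change of each gene between libraries (x axes), with Mig libraries against PBS on the left and pairs of Mig libraries on the right. Points are TMM-scaled ratios, bars their exact 95% counting intervals, and dashed lines mark 2-fold, which 8 genes pass on the left and 0 pass on the right, where the values lie between -0.48 and 0.30. Of all genes tested, between 30.2% and 30.5% passed 2-fold against PBS and between 9.12% and 9.69% in pairs of Mig libraries.

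Because AKR1B1 was lower while the other 4 AKRs of the set were higher, the makeup of the set differed more than its total. The 5 AKRs summed to 380 FPKM for PBS and to 283, 305 and 322 FPKM with normo-Migs, hypo-Migs and CD147KO-Migs. AKR1B1 was 97.8% of that sum for PBS and 55.2%, 54.2% and 52.6% with Migs. Over all 16 listed AKR genes its share was 84.9% for PBS and 47.9%, 48.0% and 46.6% with Migs. The 5 ALDHs summed to 34.5 FPKM for PBS and to 104, 105 and 112 FPKM with Migs. Here ALDH3A2 led for PBS, with 73.7% of the sum, and ALDH1A1 led with Migs, with 66.8%, 68.8% and 69.0%, against 0.235% for PBS. Over all 19 listed ALDH genes, ALDH18A1 led for PBS with 21.5%, where ALDH3A2 was 14.5%, and ALDH1A1 led with Migs with 30.0%, 31.2% and 31.2%. All 10 genes together summed to 415, 387, 409 and 433 FPKM.

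FPKM used the length of all exons of a gene joined, which for AKR1C1 is 8765 bases and for AKR1C2 6461 bases. Per kilobase of the principal transcript and per 1000000 reads, a scale chosen after the values were seen, AKR1C1 stood at 36.3, AKR1C2 at 55.5, AKR1C3 at 93.4, AKR1B10 at 62.0, ALDH1A1 at 105 and AKR1B1 at 444 with CD147KO-Migs. On both scales AKR1B1 came first, ALDH1A1 second and AKR1B10 ahead of AKR1C1 and AKR1C2, but AKR1C3 was above AKR1B10 only on the second scale.

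Between the Mig libraries, 0 of 10 members were past 2-fold in each of the 3 pairs. Among all genes tested, 9.34% were past 2-fold between hypo-Migs and normo-Migs, 9.12% between hypo-Migs and CD147KO-Migs and 9.69% between normo-Migs and CD147KO-Migs. With the adjusted p required as well the shares were 4.9%, 5.04% and 4.91%, so genes with few reads weigh heavily in them. Among the 6960 genes whose mean was 1000 reads or more, a limit chosen after the values were seen and met by 8 members, the median absolute log2 ratio was 0.07 in each pair, and 95% of genes were below 0.22, 0.21 and 0.23. Of the 8 members, 6, 5 and 7 were above the median in the same order of pairs. The Mig libraries differ in the Migs given, so the spread between them is not the spread of replicates.

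AKR1C1 and AKR1C2 were the members that differed most between the Mig libraries. With hypo-Migs against normo-Migs, AKR1C1 had a log2 ratio of 0.30 (0.25 to 0.34), AKR1C2 of 0.26 (0.21 to 0.31) and the 2 genes summed of 0.28. With normo-Migs against CD147KO-Migs the values were -0.48 (-0.52 to -0.43), -0.41 (-0.46 to -0.36) and -0.45. In both pairs AKR1C1 and AKR1C2 lay beyond the level that 95% of the genes with many reads stayed under. With hypo-Migs against CD147KO-Migs they stood at -0.18 (-0.22 to -0.14) and -0.15 (-0.20 to -0.10), and 0 of the 8 members were beyond that level. The normo-Migs library was thus the lowest of the 3 for both genes and the CD147KO-Migs library the highest.

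AKR1C3 had the same order of libraries at smaller size, with 0.18 (0.12 to 0.23) for hypo-Migs against normo-Migs and -0.03 (-0.08 to 0.03) for hypo-Migs against CD147KO-Migs. ALDH3A1 was lowest with hypo-Migs, at -0.24 (-0.37 to -0.12) against normo-Migs and -0.14 (-0.27 to -0.02) against CD147KO-Migs. AKR1B10 and ALDH1A1 were close in hypo-Migs and normo-Migs, at -0.02 (-0.09 to 0.06) and 0.05 (-0.00 to 0.09), and both were lower with hypo-Migs than with CD147KO-Migs, at -0.16 (-0.23 to -0.10) and -0.10 (-0.14 to -0.06). The other 4 members ranged from -0.12 for ALDH3A2 (hypo-Migs against CD147KO-Migs) and AKR1B1 (normo-Migs against CD147KO-Migs) to 0.12 for ALDH1A3 (hypo-Migs against normo-Migs). The member median was 0.09 for hypo-Migs against normo-Migs, -0.11 for hypo-Migs against CD147KO-Migs and -0.13 for normo-Migs against CD147KO-Migs, beside 0.00 over all genes.

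The other genes of the superfamilies did not share one direction. Of 11 further AKR genes, 9 were tested, and 2 were higher and 3 lower past 2-fold with hypo-Migs against PBS, beside 30.5% of all genes tested. The median log2 ratio over the 9 was -0.63, 0.08 and -0.38 with normo-Migs, hypo-Migs and CD147KO-Migs. Those higher were AKR1B15, at 4.24 (3.20 to 11.06), and AKR1E2, a sugar reductase, which had 0 reads for PBS and 24, 45 and 28 with normo-Migs, hypo-Migs and CD147KO-Migs. Against a floor of 3 reads per library, AKR1E2 was at least 8.10-fold, 12.9-fold and 9.20-fold higher. Those lower were KCNAB2 and KCNAB1, beta subunits of voltage-gated potassium channels with an AKR fold, and AKR7A3, an aflatoxin aldehyde reductase. KCNAB2 had 2833 reads for PBS and 572, 644 and 540 with Migs (-2.35, -2.48 to -2.23, for hypo-Migs), KCNAB1 had 59 and 6, 13 and 17, and AKR7A3 had 34 and 21, 14 and 19.

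With normo-Migs the AKR counts were 2 higher and 3 lower, with AKR7L (30, 12, 37 and 23 reads) in the place of AKR7A3, and with CD147KO-Migs 2 higher and 2 lower, beside 30.2% and 30.3% of all genes tested. AKR1A1, a general aldehyde reductase, had 1576, 2099, 2099 and 1934 reads and AKR7A2, a succinic semialdehyde reductase, 2049, 1217, 1418 and 1265, and neither reached 2-fold in any comparison with PBS. KCNAB3 had 45, 28, 58 and 71 reads, and AKR1D1, which reduces steroids in bile acid synthesis, had 2, 2, 0 and 0 and was not tested.

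Of 14 further ALDH genes, 12 were tested. Past 2-fold, 2 were higher and 3 lower with normo-Migs and with hypo-Migs, and 1 and 3 with CD147KO-Migs, where the 2 reads of ALDH8A1 were under the floor and were not counted. Of all genes tested, 30.2%, 30.5% and 30.3% were past 2-fold in these comparisons. ALDH1L2, the mitochondrial enzyme that oxidizes formyl-tetrahydrofolate, had 41 reads for PBS and 1881, 2148 and 2233 with Migs, a log2 ratio of 5.43 (5.05 to 5.98) for hypo-Migs. ALDH8A1, an enzyme of tryptophan breakdown, had 0 reads for PBS and 10, 10 and 2 with Migs. Lower were ALDH5A1, which breaks down succinic semialdehyde from GABA (1817 reads for PBS and 766, 969 and 743 with Migs), ALDH16A1 (2277 and 957, 1143 and 1027) and ALDH3B2 (11 and 0, 2 and 0). Their log2 ratios for hypo-Migs were -1.12 (-1.24 to -1.01), -1.21 (-1.32 to -1.11) and -1.83 (-5.89 to -0.48).

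The remaining ALDHs, many of them enzymes of amino acid metabolism, stayed within 2-fold. ALDH18A1, which makes the proline precursor, had 4913, 5183, 6007 and 5313 reads, ALDH9A1 3288, 3419, 4027 and 3519, and ALDH7A1 2950, 3377, 3964 and 3444. For these 3 genes the log2 ratios to PBS lay between 0.07 and 0.21, in contrast to ALDH1A1. ALDH3B1 had 3980, 2469, 2781 and 3338 reads, ALDH1B1 2527, 2193, 2372 and 2456, ALDH6A1 783, 599, 746 and 709, ALDH4A1 280, 346, 403 and 424, and ALDH1L1, with 2 reads for PBS and 0 elsewhere, was not tested. The median over the 12 genes was -0.06, -0.11 and 0.01 with normo-Migs, hypo-Migs and CD147KO-Migs, and the last was -0.03 with ALDH8A1 given no fold.

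**Figure D3:**
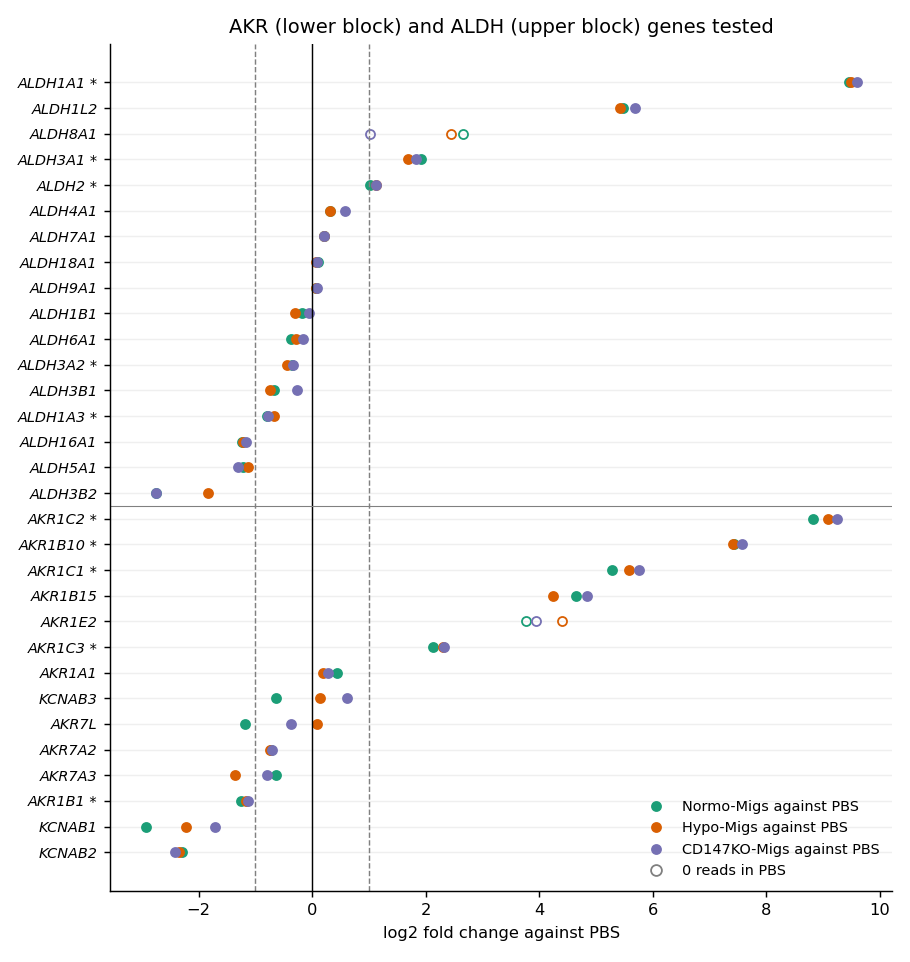
The log2 fold change against PBS (x axis) of every tested ALDH (upper block) and AKR (lower block), with 1 point per Mig library. Asterisks mark the 10 genes of the main set, open points genes with 0 reads for PBS, whose fitted value depends on the prior count of 2 (as it does for ALDH3B2, with 0 reads in 2 Mig libraries), and dashed lines 2-fold. ALDH1A1, AKR1C2 and AKR1B10 lie at 7.41 or more, ALDH18A1, ALDH9A1 and ALDH7A1 near 0, and KCNAB1 and KCNAB2 at -1.71 or less.

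AKR1B10, AKR1C1, AKR1C2, AKR1C3 and ALDH3A1 are known targets of NRF2, the transcription factor of the antioxidant response, and the other genes of that pathway were therefore listed. All 21 listed genes were tested, and 3 were higher and 1 lower past 2-fold with hypo-Migs against PBS, 2 and 1 with normo-Migs, and 2 and 0 with CD147KO-Migs. Of all genes tested, 30.5%, 30.2% and 30.3% were past 2-fold in the same order. The list's median log2 ratio was 0.18, 0.19 and 0.33 with normo-Migs, hypo-Migs and CD147KO-Migs. Higher with each Mig were ME1, the malic enzyme that makes NADPH (874 reads for PBS and 1935, 2323 and 2164 with Migs), and GSR, glutathione reductase (1553 and 3309, 4128 and 3522). Their log2 ratios for hypo-Migs were 1.19 (1.08 to 1.31) and 1.19 (1.11 to 1.28).

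HMOX1, the gene of heme oxygenase, stood at 0.99, 1.03 and 0.96 with normo-Migs, hypo-Migs and CD147KO-Migs, so that its call lies at the edge of counting error. OSGIN1, named after its values were seen, stood at -1.09, -1.14 and -0.67. The classical target NQO1, a quinone reductase, had 7435 reads for PBS and 9781, 11078 and 10023 with Migs (0.36 for hypo-Migs, 0.31 to 0.40), and TXNRD1, thioredoxin reductase, had 27128 and 20101, 23368 and 21220 (-0.43, -0.46 to -0.41). TKT and PGD, of the pentose phosphate pathway, stood at 0.59 and 0.50 with hypo-Migs. NFE2L2, the gene of NRF2 itself, stood at 0.14, 0.19 and 0.17 and KEAP1, its inhibitor, at -0.55, -0.66 and -0.63, both picked with their values known. Between Mig libraries 0 of the 21 genes were past 2-fold in any pair. The shares of all genes tested were 9.34% for hypo-Migs against normo-Migs, 9.12% for hypo-Migs against CD147KO-Migs and 9.69% for normo-Migs against CD147KO-Migs.

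Promoter windows of 300 bases were found in RefSeq (GRCh38.p14) for 7 members, 10 windows in all. AKR1B10, ALDH2 and ALDH3A1 had no window, and those of the AKR1C genes overlap 5′ exons in GENCODE release 29, so of the 5 named NRF2 targets 3 were searched. The antioxidant response element core TGACNNNGC, searched on both strands, was in 0 of the 10 windows and in 13.3% of all 35116 windows of that length. The xenobiotic response element core GCGTG was in 4 of the 10, belonging to AKR1B1, ALDH1A3 and ALDH3A2, and in 36.5% of all windows. A window of this length leaves out most regulatory sequence, and a match is a description of letters only.

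Retinoid genes were listed because AKR1B10 and the ALDH1A enzymes act on retinal. Of 24 listed genes 20 were tested, and 6 were higher and 1 lower past 2-fold with hypo-Migs against PBS, 5 and 2 with normo-Migs, where the 2 reads of DHRS9 were under the floor and were not counted, and 7 and 1 with CD147KO-Migs. These counts stand beside 30.5%, 30.2% and 30.3% of all genes tested. The median log2 ratio was 0.34, 0.30 and 0.57 with normo-Migs, hypo-Migs and CD147KO-Migs, and the first was 0.04 with DHRS9 given no fold. STRA6, the receptor that takes up retinol, had 2 reads for PBS and 2266, 2692 and 2283 with Migs, a log2 ratio of 9.21 (8.32 to 13.22) for hypo-Migs. RBP4, which carries retinol in blood, had 33 reads and 630, 818 and 895 (4.34, 3.91 to 4.96), and RARB, a retinoic acid receptor whose gene is itself a target of retinoic acid, had 6 reads and 78, 116 and 101 (3.68, 2.89 to 5.53). RDH10, the retinol dehydrogenase upstream of the ALDH1A enzymes, had 1465 and 3917, 4206 and 4066 (1.30, 1.22 to 1.39).

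In the same list, CYP26A1 was the only gene lower past 2-fold with every Mig, and RDH5 was lower past it with normo-Migs only. CYP26A1, which degrades retinoic acid and is a classical target of it, had 58 reads for PBS and 8, 8 and 5 with Migs, a log2 ratio of -2.77 (-4.35 to -2.00) for hypo-Migs, and was named after its values were seen. On the higher side, TGM2, transglutaminase, stood at 1.26, 0.88 and 1.03 with normo-Migs, hypo-Migs and CD147KO-Migs. RXRA stood at 0.83, 0.85 and 0.95, and RDH11 at 0.62, 0.42 and 0.37. RDH5 and DHRS9, also named after their values were seen, were the 2 genes of the 20 tested that were past 2-fold between hypo-Migs and normo-Migs. Between normo-Migs and CD147KO-Migs, RDH5, DHRS9 and RARRES3, named in the same way, were past it, all lower with normo-Migs. Between hypo-Migs and CD147KO-Migs 0 were past it. Among all genes tested, 9.34%, 9.69% and 9.12% were past 2-fold in these pairs. RDH5 had 28 reads for PBS and 2, 24 and 22 with normo-Migs, hypo-Migs and CD147KO-Migs, and DHRS9 had 0, 2, 12 and 14.

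Alcohol dehydrogenases and carbonyl reductases outside the AKR family serve some of the same substrates. Of 15 listed genes 10 were tested, and 1 was higher and 1 lower past 2-fold with normo-Migs and with hypo-Migs against PBS, and 0 and 1 with CD147KO-Migs, beside 30.2%, 30.5% and 30.3% of all genes tested. The medians were 0.01, 0.09 and 0.06. DHRS2, a carbonyl reductase, was the lower one, with 316 reads for PBS and 125, 96 and 107 with Migs (-1.91 for hypo-Migs, -2.28 to -1.60). ADH6, the higher one, rested on 0, 10, 20 and 5 reads and was named after its values were seen. Its 5 reads with CD147KO-Migs were 1.64-fold the floor of the PBS library and were not counted. ADH5, the formaldehyde-clearing enzyme, stood at 0.46, 0.41 and 0.39, PTGR1 at 0.82, 0.97 and 0.99, CBR4 at 0.67, 0.74 and 0.78, SORD, which follows aldose reductase in making fructose, at -0.27, -0.47 and -0.39, DCXR at -0.16, -0.35 and -0.29 and DHRS4 at 0.00, 0.17 and 0.16. ADH1A, ADH1B and ADH7 had 0 reads in all 4 libraries, and ADH1C and ADH4 at most 2 and 1.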

How the data were processed

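RNA-seq of 4 libraries was analysed. The supplementary methods describe poly-T selection of mRNA, whereas the labels name a SMARTer mRNA kit. The submitters' processing notes name CASAVA 1.8, fastp, HISAT2 2.0.5, featureCounts 1.5.0-p3 and hg38, and strand and multi-mapping settings are not given in the sources used here. The authors deposited raw counts of reads per gene, not normalized, and FPKM, scaled by gene length and library size. Identifiers and coordinates of all 58735 genes matched GENCODE release 29.

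A gene was tested if 1 library or more held 10 reads of it (19895 genes). Libraries were scaled by TMM in edgeR 4.0.16 (R 4.3.3; factors 1.02 for PBS, 0.986, 0.996 and 0.999 for normo-Migs, hypo-Migs and CD147KO-Migs), with a prior count of 2 for log2 ratios. An absolute log2 ratio of 1 was the call, and its computation was checked on simulated data for hypo-Migs against normo-Migs. Quasi-likelihood tests and DESeq2 (1.42.0) have no residual degrees of freedom here, and DESeq2 gave size factors only. A count of 0 allows 3 reads, between 0.0747 and 0.0880 per 1000000 reads. Tables and figures used Python 3.11.15 with numpy 2.4.6, pandas 2.3.3, scipy 1.17.1 and matplotlib 3.10.9.

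Members and lists were chosen with earlier results of these data known. A gene of the NRF2 list is not reported here. Named genes were the members, all other counted AKR and ALDH genes, and, per list, up to 4 genes with the most reads and up to 3 with the largest difference between Mig and PBS libraries at a mean of 50 reads or more, with exceptions stated beside them. In list counts, a gene at 0 reads in a library was counted only if its bound against a floor of 3 reads passed 2-fold. The list medians were the same with such genes at their bound, except where a second value is given. For the 3 members of widest range, the 2 genes of closest pattern were also named. The alternatives concerned scaling, the filter, the prior count, the FPKM table, an added adjusted p and the summing of AKR1C1 and AKR1C2.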

Additional observations from a re-analysis of the deposited data

How the results depend on the processing

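The count of members past 2-fold in comparisons with PBS was 8 of 10, and 7 on the scale log2(FPKM + 1), where ALDH2 was lost, and it was 7 of 9 when AKR1C1 and AKR1C2 were summed. It was 8 under DESeq2 size factors, no filter, a prior count of 0.25 and the added adjusted p. With total reads it was 7 for normo-Migs, where ALDH2 stood at 0.98, and 8 for the other Migs. With at least 10 reads in every library it was 7, since ALDH1A1, with 8 PBS reads, was not tested. Between Mig libraries it was 0 under each of these alternatives. Of 354 member log2 ratios under alternatives, 328 moved by less than counting error, 26 moved more (23 on the FPKM scale, 3 for AKR1B1 with total reads) and 0 called values changed sign. With total reads, 2 ratios near 0 changed sign, AKR1B10 for hypo-Migs against normo-Migs and ALDH2 for hypo-Migs against CD147KO-Migs. The log2(FPKM + 1) scale moved a ratio by up to 4.26, and on it AKR1C2 stood at 4.98, ALDH1A1 at 6.18 and AKR1B10 at 5.49 for CD147KO-Migs against PBS, compared with 9.24, 9.59 and 7.57. A prior count of 0.25 moved a ratio by up to 0.27 and DESeq2 size factors by up to 0.02.

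Counts over all genes moved with the filter and the scale. For normo-Migs, hypo-Migs and CD147KO-Migs against PBS and then hypo-Migs against normo-Migs, hypo-Migs against CD147KO-Migs and normo-Migs against CD147KO-Migs, they were 6003, 6067, 6033, 1858, 1814 and 1928. Without a filter they were 10676, 9625, 10759, 5103, 4968 and 5930, with at least 10 reads in every library 2684, 2744, 2753, 253, 233 and 264, and on the log2(FPKM + 1) scale 1619, 1674, 1658, 56, 80 and 66. With the edgeR exact binomial test and its adjusted p added, which compares libraries and not conditions, the pairs of Mig libraries gave 975, 1003 and 977.

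No paired analysis was possible because each condition had 1 library. Leaving out a library leaves a condition empty and was not run. The main limits are this lack of replicates, the PBS library shared by the comparisons with PBS, and the few reads for ALDH1A1, AKR1C2 and AKR1B10 in it.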

Other observations

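Enzymes of steroid and prostaglandin metabolism, which share substrates with the AKR1C group, were mixed in direction. Of 22 listed genes 19 were tested, and 3 were higher and 4 lower past 2-fold with normo-Migs and with hypo-Migs against PBS, and 2 and 4 with CD147KO-Migs, beside 30.2%, 30.5% and 30.3% of all genes tested, with medians of -0.04, -0.08 and -0.03. HSD11B1, at 0 reads for PBS, had 6 with CD147KO-Migs, 1.97-fold the floor of the PBS library, and was not counted there. HSD17B2, which oxidizes testosterone and estradiol to weaker forms, had 914 reads for PBS and 31, 37 and 22 with normo-Migs, hypo-Migs and CD147KO-Migs, a log2 ratio of -4.76 (-5.36 to -4.37) for hypo-Migs. HSD17B8, of mitochondrial fatty acid synthesis, had 509 reads and 122, 118 and 101 (-2.31, -2.63 to -2.04), and HSD17B11, of lipid droplets, had 199 reads and 1097, 1152 and 1070 (2.30, 2.10 to 2.54). PTGES, prostaglandin E synthase, HSD17B10, HSD17B4 and PTGES2 stood at 0.18, 0.55, 0.54 and -0.37 with hypo-Migs. The other genes past the call, named after their values were seen, were HSD11B1 and HPGD (higher) and HSD3B7 and PTGS1 (lower).

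Of 7 genes of the aryl hydrocarbon receptor (AHR) pathway, which is known to induce ALDH3A1, 6 were tested, with medians of -0.70, -0.60 and -0.48 against PBS. CYP1B1 and CYP1A1, both classical targets of AHR, stood on opposite sides. CYP1B1 had 277 reads for PBS and 3967, 4256 and 4141 with Migs (3.71, 3.55 to 3.90, for hypo-Migs), whereas CYP1A1 had 266 reads and 55, 56 and 79 (-2.42, -2.91 to -2.05). AHR itself stood at -1.01, -0.74 and -0.95, AHRR, its repressor, at -0.80, -0.90 and -0.31, TIPARP at -0.61, -0.47 and -0.65 and ARNT, its partner, at 0.45, 0.42 and 0.39.

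Among 12162 protein-coding genes with a mean of 50 reads or more, the patterns over the 4 libraries closest to ALDH1A1 by root mean square log2 difference were those of DACT2 (0, 1402, 1521 and 1483 reads) and COL5A2 (0.06, with 18, 14903, 18267 and 15633 reads). For AKR1C2 they were CNTN1 (0, 835, 1260 and 1233 reads) and CXCL5 (0, 961, 1424 and 1206), and for AKR1B10 F2RL3 (0, 325, 362 and 372) and IQGAP2 (0, 303, 365 and 343). All of these but COL5A2 had 0 reads for PBS, so their PBS value, on which the distance mainly rests, is set by the prior count of 2.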
